A study of Rattus norvegicus with 68 samples.

Results

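Transcripts of 9 red cell genes were followed in the blood of rats given acetaminophen: Bpgm, Bnip3l, Nfe2, Rhd, Epb42, Tal1, Ahsp, Alas2 and Ank1. They are 9 of the 9653 genes that the arrays measured through a probe with a single gene name, and each had 1 probe. They were selected on their measured log2 ratios of treated over vehicle, with all 9 dose and time groups known. Alas2 and Ank1 were taken for contrast with the other 7, called the lower genes. All 7 had means below vehicle at 24 h after 1500 and 2500 mg/kg. Yet Tal1 after 1500 mg/kg and Ahsp after 2500 mg/kg each had 2 of 4 rats above vehicle there. Because of this selection, the values of the 9 genes and their calls in the fit across all genes are a description from which nothing is read. Tests are read only on 65 other red cell genes, a list also drawn up with earlier results of these data known. Male F344/N rats aged 10 to 12 weeks received 150, 1500 or 2500 mg/kg acetaminophen in ethyl cellulose by gavage, split into 2 portions, and were killed 6, 12 or 24 h later. Each group had 4 rats, except 3 in the groups given 150 and 1500 mg/kg and killed at 12 h, which made 34 rats and 68 two-colour arrays. Every rat was compared with vehicle RNA of its own time on 2 arrays of opposite dye. The series describes the vehicle RNA as a pool of 4 animals at 6 and 12 h and of 6 animals at 24 h, but arrays of 6 and 12 h name just 1 control rat in their labels.

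A value here is the log2 ratio of treated over vehicle, averaged over the 2 arrays of a rat. Errors are SDs between rats unless another is named. No source used here states which dye was divided by which. Cy5 was assumed to be the numerator, the common convention, which is likely but not certain; otherwise all signs in the text reverse. The number of arrays limits the precision, and the spread of single vehicle animals is not part of any error. The ratios carry no absolute level, so the blood label could not be checked against cell type markers.

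Red cells lose their nucleus and make most of their protein while they mature in the marrow, so the red cell transcripts of blood come largely from reticulocytes, the young cells that still hold RNA. During maturation these cells join haem to globin, clear their mitochondria and fasten the membrane to a skeleton of spectrin. Among the 9 genes, Tal1 and Nfe2 encode transcription factors of the red cell and platelet lineages. Alas2 starts haem synthesis in red cells, and Ahsp holds free alpha globin in solution. Bnip3l marks mitochondria for removal, and Bpgm makes the phosphoglycerate that loosens the hold of haemoglobin on oxygen. Rhd is a blood group protein, Epb42 ties the anion exchanger to the skeleton, and Ank1 is the ankyrin that anchors the spectrin network.

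A few arrays stood apart. Across named probes, all arrays but 1 correlated with the mean dye profile at 0.371 or more, whereas the array of rat 3631 (2500 mg/kg, 24 h) with treated RNA in Cy5 had -0.239. In rat 4137 (2500 mg/kg, 12 h) the unturned ratios of its 2 arrays correlated at 0.864, the highest of all rats, and its averaged ratios for the 7 lower genes lay between -0.04 and 0.01. For the 9 genes, the mean of the 2500 mg/kg group at 12 h is followed by that without rat 4137. At 24 h it is followed by that without rat 3631 where this rat held the value farthest from vehicle.

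At 24 h Bpgm had the lowest mean of the 9 genes at both higher doses. It had log2 ratios of -1.50, -0.78, -1.15 and -1.54 in the 4 rats given 1500 mg/kg, and of -1.68, -1.58, -1.24 and -1.98 after 2500 mg/kg. These are means of -1.25 ± 0.35 and -1.62 ± 0.31 (SD, n = 4), or 2.37-fold and 3.08-fold below vehicle, which would be above it if the ratio ran the other way. Without rat 3631 the high dose mean was -1.50 ± 0.23 (SD, n = 3). At 150 mg/kg Bpgm ranged from -0.72 to 0.05, above the rats of the higher doses. The gene was selected as a falling one with these groups known, so nothing is read from this. The share of all genes without overlap is not given here. In these blood samples fewer red cells and less RNA per red cell cannot be told apart.

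Bnip3l had -0.87, -0.97, -1.51 and -1.21 after 1500 mg/kg and -1.44, -0.74, -0.67 and -0.78 after 2500 mg/kg. Its mean was -1.14 ± 0.29 at the middle dose and -0.91 ± 0.36 at the high dose (SD, n = 4), against -0.16 ± 0.25 after 150 mg/kg. The rats of the 2 higher doses overlapped each other, and the lowest rat at 150 mg/kg had -0.40. With Ahsp, the mitochondrial receptor was the gene of the lower set whose mean at 24 h lay nearer to vehicle after 2500 than after 1500 mg/kg, within overlapping rats.

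Rhd had -0.82, -0.54, -1.34 and -1.19 after 1500 mg/kg and -1.02, -0.87, -0.73 and -1.67 after 2500 mg/kg. The blood group gene averaged -0.97 ± 0.36 and -1.07 ± 0.41 (SD, n = 4), with overlapping rats, while at 150 mg/kg its rats spread from -0.24 to 0.28. Epb42 had -0.80, -0.32, -0.61 and -0.77 after 1500 mg/kg and -0.79, -0.58, -0.57 and -1.52 after 2500 mg/kg. The lowest Rhd and Epb42 values after 2500 mg/kg both belonged to rat 3631. Without it the high dose means were -0.88 ± 0.15 for Rhd and -0.65 ± 0.12 for Epb42 (SD, n = 3).

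Of the transcription factors, Nfe2 had -0.89, -0.30, -0.29 and -0.48 after 1500 mg/kg and -0.67, -1.08, -0.79 and -1.82 after 2500 mg/kg. Its means were -0.49 ± 0.28 and -1.09 ± 0.51 (SD, n = 4), and -0.85 ± 0.21 at the high dose without rat 3631. Tal1 kept apart from the others: after 1500 mg/kg its rats lay on both sides of vehicle at -0.57, 0.03, 0.06 and -0.24. After 2500 mg/kg all 4 rats lay close together at -0.60, -0.75, -0.78 and -0.56. At 150 mg/kg Tal1 was above vehicle in 3 rats, at 0.31 to 0.42, and at -0.59 in rat 3618.

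Ahsp, the globin chaperone, had the smallest differences of the 7 at 24 h after 2500 mg/kg. It had -0.17, -0.31, -0.31 and -0.45 after 1500 mg/kg, all below vehicle. After 2500 mg/kg it had -0.44, 0.06, 0.04 and -0.63, with 2 rats near vehicle and 2 below it. Its mean there was -0.25 ± 0.34 (SD, n = 4), and -0.12 ± 0.28 without rat 3631 (SD, n = 3).

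**Figure D1:**
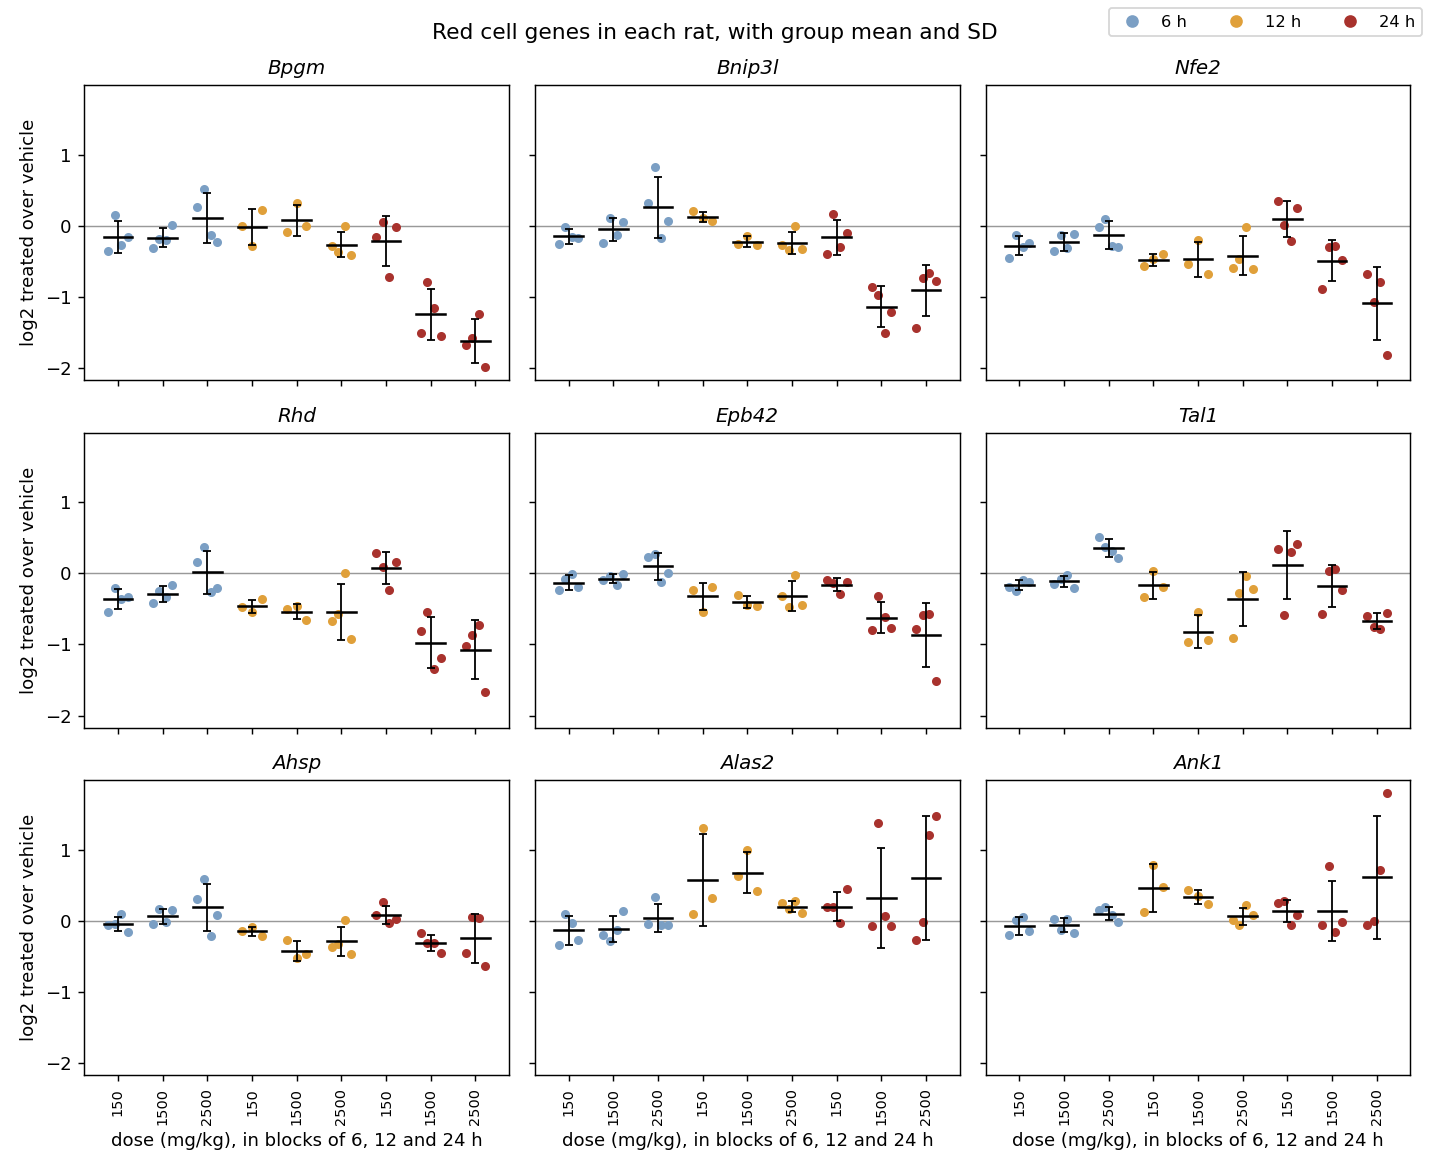
Log2 ratio of treated over vehicle (vertical axis) for each of the 9 genes, with 1 point per rat, in blocks of 6, 12 and 24 h and by dose in mg/kg within each block. Horizontal bars are group means and whiskers the SD. For Bpgm, Bnip3l, Nfe2, Rhd and Epb42 the means of both higher doses at 24 h are the lowest of the 9 group means. For Nfe2 this is narrow, at -0.49 after 1500 mg/kg at 24 h against -0.48 after 150 mg/kg at 12 h. Alas2 and Ank1 are wide at the higher doses at 24 h, with single rats above 1.

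The fit across all 9653 genes called 5 of the 9 lower and 0 higher at 24 h after 1500 mg/kg, where it called 5.74% of all genes lower and 2.34% higher (limma, adjusted p under 0.05). The 5 were Bpgm, Bnip3l, Nfe2, Rhd and Epb42. After 2500 mg/kg it called these and Tal1 lower, and Alas2 and Ank1 higher, against 15.6% of all genes lower and 10.9% higher. At 150 mg/kg and 24 h it called none of the 9, and 0% of all genes in either direction. Without rat 3623 or rat 3626 Nfe2 was no longer called after 1500 mg/kg, at -0.35 and -0.49. The call of Alas2 was lost in 18 of the 34 fits that left out 1 rat and that of Ank1 in 1, the fit without rat 3631. Since the genes were selected with these results known, nothing is read from these counts.

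Promoters are shown for 2 of the lower genes, a blood group gene and an enzyme gene. They were picked because their windows differ in red cell motifs. Both lay low in all 8 rats of the higher doses at 24 h, but so did Bnip3l, Nfe2 and Epb42. RefSeq promoter windows (GRCr8) matched 5 of the 9 genes, Bpgm, Rhd, Epb42, Tal1 and Alas2, and the 250 bases before each listed start were searched on both strands. The letters searched were GATAA, the core bound by GATA factors, CACCC, bound by the red cell Kruppel-like factor, and TGAGTCA, the core bound by Nfe2 with small Maf proteins. Capitals mark GATAA and CACCC, or their reverse complements TTATC and GGGTG, and no capitals means no match.
Rhd, chr5:152370950-152371199, plus strand: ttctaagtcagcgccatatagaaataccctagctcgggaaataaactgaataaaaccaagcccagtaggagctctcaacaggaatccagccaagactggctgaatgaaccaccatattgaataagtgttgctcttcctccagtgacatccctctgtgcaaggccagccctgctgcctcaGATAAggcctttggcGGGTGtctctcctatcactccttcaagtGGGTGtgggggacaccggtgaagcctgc
Bpgm, chr4:64107027-64107276, plus strand: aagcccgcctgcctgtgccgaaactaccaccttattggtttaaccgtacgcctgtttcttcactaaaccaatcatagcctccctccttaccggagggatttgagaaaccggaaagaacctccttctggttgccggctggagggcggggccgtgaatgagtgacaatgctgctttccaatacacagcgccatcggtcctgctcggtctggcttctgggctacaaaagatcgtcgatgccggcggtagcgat
The Rhd window held 1 GATAA and 2 CACCC matches, the latter as GGGTG. The Bpgm, Epb42 and Tal1 windows held none of the 3 motifs, and the Alas2 window held 1 GATAA. Of all 33469 RefSeq windows of this length, 23.5% held GATAA, 49.2% CACCC and 4.05% TGAGTCA. These matches describe letters in a window and show no bound site.

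At 12 h Nfe2, Rhd and Epb42 lay at or below vehicle at every dose. Nfe2 had -0.57, -0.46 and -0.40 at the low dose, -0.54, -0.19 and -0.68 at the middle dose, and -0.60, -0.46, -0.02 and -0.60 at the high dose. Rhd had -0.47, -0.55 and -0.36 at the low dose, -0.49, -0.46 and -0.65 at the middle dose, and -0.68, -0.57, -0.00 and -0.92 at the high dose. All 10 rats lay at or below vehicle for both genes, with overlapping doses. Epb42 did the same with means of -0.32 ± 0.19 and -0.40 ± 0.09 (SD, n = 3) and -0.32 ± 0.21 (SD, n = 4). The doses of a time share 1 vehicle RNA, so a shift common to them and the level of that RNA cannot be told apart.

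Rat 4137 held the value nearest to vehicle of the 2500 mg/kg group at 12 h for all 7 lower genes. Without it the means there were -0.56 ± 0.08 for Nfe2, -0.72 ± 0.18 for Rhd, -0.42 ± 0.08 for Epb42 and -0.39 ± 0.07 for Ahsp (SD, n = 3). They were -0.35 ± 0.07 for Bpgm, -0.31 ± 0.04 for Bnip3l and -0.47 ± 0.38 for Tal1. Bpgm, the lowest gene at 24 h, averaged -0.02 ± 0.25, 0.08 ± 0.22 and -0.26 ± 0.18 over the 3 doses at 12 h. Bnip3l averaged 0.13 ± 0.07 after 150 mg/kg, above vehicle in 3 of 3 rats, and -0.22 ± 0.07 and -0.24 ± 0.15 at the higher doses. Bnip3l lay below vehicle in all 7 rats of the higher doses, while the enzyme gene Bpgm lay on both sides of it after 150 and 1500 mg/kg.

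Tal1 was lowest at 12 h after 1500 mg/kg, with -0.97, -0.54 and -0.94, while the low dose had -0.34 to 0.04. Its mean there, -0.82 ± 0.24 (SD, n = 3), lay below the -0.18 ± 0.29 of the same dose at 24 h (SD, n = 4). After 2500 mg/kg it spread from -0.90 to -0.04, the latter in rat 4137. Ahsp averaged -0.15 ± 0.07, -0.42 ± 0.14 and -0.29 ± 0.21 from the low to the high dose. Read against the fit, 0 of the 9 genes were called at 12 h after 150 mg/kg, where 0.922% of all genes were called lower and 0.963% higher. Rhd, Tal1 and Ahsp were called lower after 1500 mg/kg, where 3.36% were lower and 1.48% higher. Rhd was called lower after 2500 mg/kg, where 1.29% were lower and 0.0932% higher. Leaving out any rat of the 1500 mg/kg group ended the calls of Rhd and Ahsp there, at -0.57 to -0.48 and -0.50 to -0.37, but not that of Tal1. Leaving out rat 4135, 4136 or 4138 ended that of Rhd after 2500 mg/kg, at -0.53 to -0.42, as did 8 rats of other groups.

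At 6 h most of the lower genes lay near vehicle. After 150 mg/kg their means ran from -0.36 ± 0.14 for Rhd to -0.04 ± 0.10 for Ahsp, and after 1500 mg/kg from -0.29 ± 0.11 for Rhd to 0.07 ± 0.11 for Ahsp. Nfe2, Rhd, Epb42 and Tal1 lay below vehicle in all 8 of these rats. After 2500 mg/kg 6 of the 7 means were above 0, led by Tal1 at 0.52, 0.38, 0.32 and 0.22, all above vehicle. Bnip3l averaged 0.26 ± 0.43 there and reached 0.82 in rat 3596, without which the mean was 0.07 ± 0.24. The fit called 0 of the 9 at 6 h at any dose. All genes called lower were 0.932%, 9.24% and 5.18% from the low to the high dose, and those called higher 1.07%, 3.48% and 2.54%.

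Alas2 and Ank1 reached high values in single rats. At 24 h after 2500 mg/kg Alas2, the enzyme that starts haem synthesis, had -0.27, -0.02, 1.21 and 1.48 in rats 3628, 3629, 3630 and 3631. Ank1, the ankyrin, had -0.05, -0.00, 0.72 and 1.79 in the same rats. For both genes 2 rats were near or below vehicle and the same 2 were far above it, so the means of 0.60 ± 0.87 and 0.61 ± 0.86 (SD, n = 4) describe none of them. Without rat 3631 the means were 0.31 ± 0.79 and 0.22 ± 0.43 (SD, n = 3). The fit no longer called either gene without that rat.

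After 1500 mg/kg the same genes were high in 1 rat. Rat 3624 had 1.37 for Alas2 and 0.77 for Ank1, and the other 3 rats had -0.08 to 0.07 and -0.16 to -0.01. Without rat 3624 the means were -0.02 ± 0.08 and -0.07 ± 0.08 (SD, n = 3), against 0.33 ± 0.70 and 0.14 ± 0.43 with it. Rat 3624 was also the rat of its group nearest to vehicle for Bpgm, Rhd and Epb42, at -0.78, -0.54 and -0.32. The same held for Tal1, but not for Bnip3l, Nfe2 and Ahsp. The 4 rats with the highest Ank1 of all 34 were 3631, 4128, 3624 and 3630, and they were the 4 with the highest Alas2.

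Both genes lay above vehicle in all 10 rats at 12 h except that Ank1 was at -0.06 in 1 rat given 2500 mg/kg. Alas2 had 0.09, 1.31 and 0.32 at the low dose, 0.63, 0.995 and 0.42 at the middle dose, and 0.11 to 0.28 at the high dose. Ank1 had 0.12, 0.79 and 0.48, then 0.43, 0.35 and 0.24, and at the high dose -0.06 to 0.23. The highest value after 150 mg/kg was that of rat 4128 for both genes, and without it the means were 0.21 ± 0.17 and 0.30 ± 0.25 (SD, n = 2). At the high dose the means were 0.20 ± 0.08 and 0.07 ± 0.12 (SD, n = 4), and 0.18 ± 0.07 and 0.01 ± 0.07 without rat 4137 (SD, n = 3). At 6 h Alas2 means lay between -0.13 and 0.04 and Ank1 means between -0.07 and 0.10.

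The ratio of Alas2 also depended on the dye. Over all rats its ratio of Cy5 over Cy3 averaged -0.68 on the log2 scale whichever RNA carried the dye, a size that 8.35% of the 12750 named probes reached. Alas2 had the same sign on both arrays in 5 of 34 rats and Ank1 in 11, whereas Bnip3l had it in 29 and Rhd in 26. Alas2 was above 0 in all 34 rats on the array with treated RNA in Cy3, and on the other array only in rats 4128, 4133, 3624, 3630 and 3631. Bpgm had it in 11 of 34 rats, with a mean dye ratio of -0.48, but in 8 of 8 rats of the higher doses at 24 h. In rat 3631 the array with treated RNA in Cy5, the one that stood apart, had 2.48 for Alas2 and 3.39 for Ank1, and the other array 0.49 and 0.19. In rat 3630 the Cy5 array had 1.80 and 1.11 and the other 0.62 and 0.33. In rat 3624 it was the other way round, with 0.39 and 0.45 on the Cy5 array and 2.36 and 1.08 on the other. The part of the dye in the high values was not tested.

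**Figure D2:**
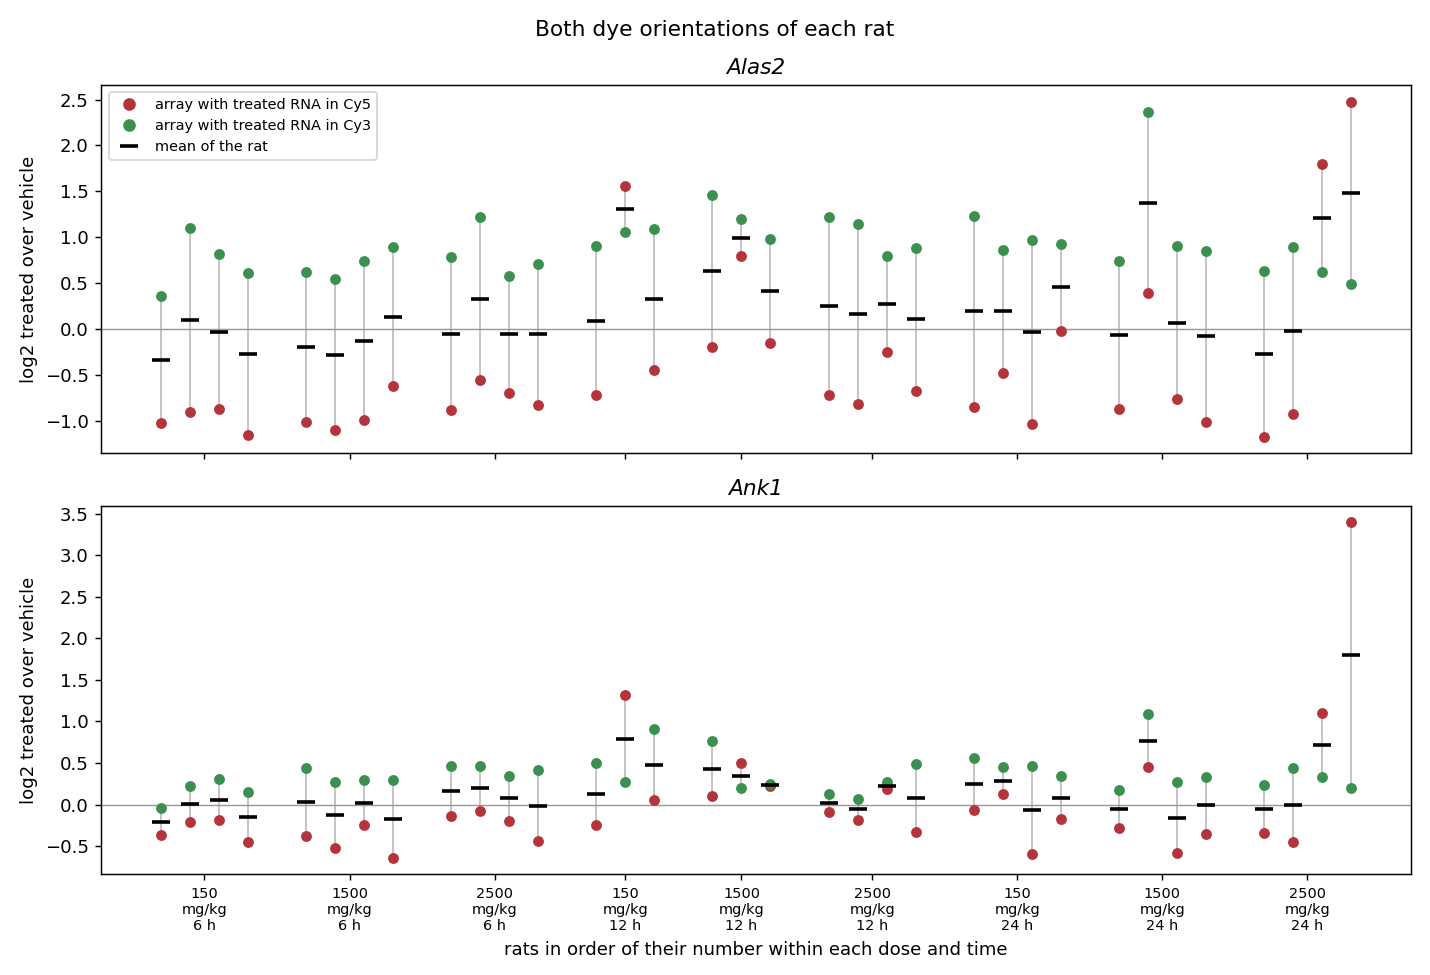
Log2 ratio of treated over vehicle (vertical axis) of Alas2 (top) and Ank1 (bottom) on each array, with rats in order of number within each dose and time. Red points are arrays with treated RNA in Cy5, green points arrays with it in Cy3, and black dashes the mean of the rat; in most rats the green point lies above the red, and the rats with the highest means are 3631, 3630, 3624 and 4128.

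Set against each other rat by rat, the mean of the 7 lower genes lay below the mean of Alas2 and Ank1 at 24 h in all 12 rats. Single lower genes did not always do so. The mean of the 7 minus the mean of the pair was -0.19 ± 0.05 after 150 mg/kg, -0.94 ± 0.39 after 1500 mg/kg and -1.53 ± 1.01 after 2500 mg/kg (SD, n = 4). The high dose ranged from -0.78 to -2.92, and the middle dose from -0.69 to -1.53. The 5 rats of these doses whose pair lay near vehicle still had -0.69 to -0.80. Without rat 3631 the high dose mean was -1.07. The mean of the 7 alone was -0.02 ± 0.14, -0.71 ± 0.17 and -0.92 ± 0.26. That of the pair was 0.17 ± 0.15, 0.23 ± 0.56 and 0.61 ± 0.85, wide at the higher doses through rats 3624, 3630 and 3631. Averaging 7 genes narrows a mean more than averaging the pair, so these SDs are not alike. Among the single lower genes the SD after 2500 mg/kg reached 0.51, for Nfe2. At 12 h the difference was -0.73 ± 0.51, -0.91 ± 0.07 and -0.48 ± 0.16, with all 10 rats below 0. Without rat 4128 the low dose mean was -0.44, and without rat 4137 the high dose mean was -0.55. At 6 h it was -0.08 ± 0.09, -0.03 ± 0.13 and 0.06 ± 0.16. The split into 7 and 2 was made from these values.

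**Figure D3:**
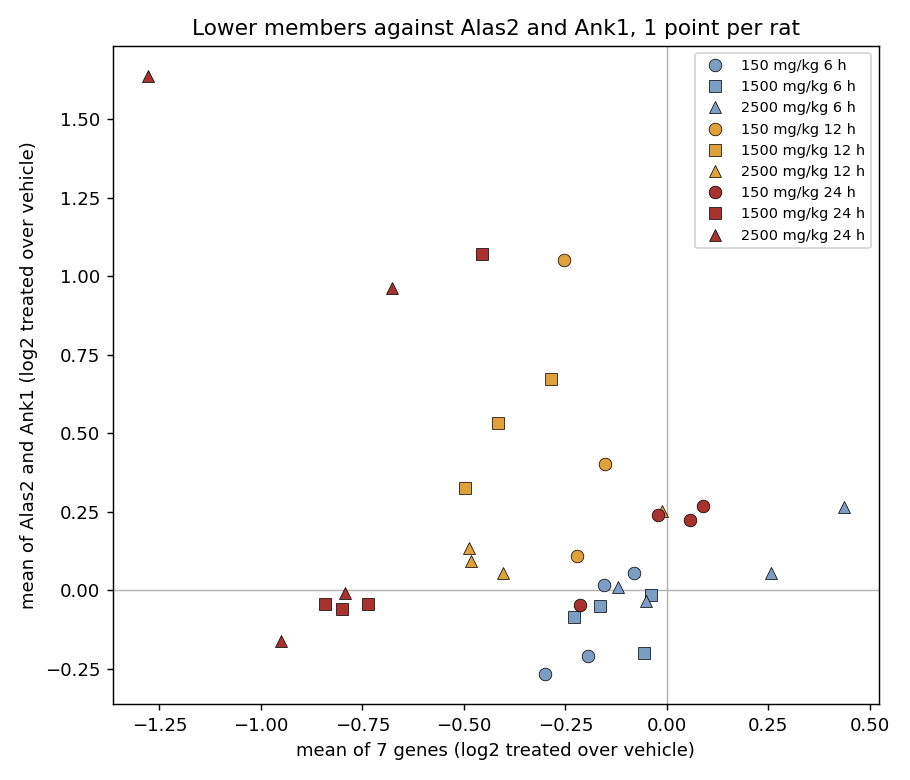
Mean log2 ratio of the 7 lower genes (horizontal axis) against the mean of Alas2 and Ank1 (vertical axis), with 1 point per rat; colours give the time and shapes the dose. Rats of the higher doses at 24 h lie between -1.28 and -0.46 on the horizontal axis, and on the vertical axis 5 of the 8 lie below 0 and 3 above 0.5.

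Genes outside the 9 were tested, in the same rats and against the same vehicle RNA. Their list was also drawn up with earlier results of these data known, so the test is not independent of them. Of 109 other red cell genes listed, 65 were measured, and at 24 h the 1500 mg/kg dose had 21 of them lower and 1 higher (limma, adjusted p under 0.05). The 2500 mg/kg dose had 28 lower and 3 higher. The shares are to be read against the 5.74% lower and 2.34% higher of all genes at the middle dose and 15.6% and 10.9% at the high dose. Median ratios of the 65 were -0.09 and -0.11, against 0.01 and -0.00 over all genes. The calls at both doses shared 20 genes, 95.2% of those of the middle dose and 71.4% of those of the high dose, but the doses share their vehicle RNA. Slc4a1, the anion exchanger to which Epb42 binds, was called lower only after 1500 mg/kg, at -0.79 (adjusted p = 0.000238), and it was named after its values were seen.

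Among the 16 maturation and enzyme genes, 5 fell at the middle dose and 10 at the high dose, and 1 and 2 rose. Cat, the catalase that breaks down hydrogen peroxide, fell to -1.29 ± 0.39 and -1.50 ± 0.41 (SD, n = 4; adjusted p = 2.19e-07 and 2.39e-08), below vehicle in every rat. Mkrn1, a ubiquitin ligase, fell to -1.32 ± 0.23 and -1.07 ± 0.25 (adjusted p = 3.22e-09 and 7.66e-08). Tent5c, a poly(A) polymerase, fell to -0.85 ± 0.49 and -1.35 ± 0.42, and Blvrb, a biliverdin reductase of red cells, to -0.87 ± 0.14 and -1.08 ± 0.51. These ratios are of the size of those of Bpgm and Bnip3l.

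The share that rose at the high dose, 2 of 16, lay near the 10.9% of all genes. Map1lc3b, an autophagy gene named after its values were seen, fell by 0.37 after 2500 mg/kg (adjusted p = 0.00321). Pgam1, a phosphoglycerate mutase of glycolysis, rose by 0.08 ± 0.08 after 1500 mg/kg (adjusted p = 0.0256), a call lost without rat 3625 or rat 3626 at 0.05 and 0.07. Pfkl, a phosphofructokinase, rose by 0.16 ± 0.10 after 2500 mg/kg (adjusted p = 0.000626; 0.0623 with only the rats of 24 h). Ulk1, a kinase that starts autophagy, had 0.80 ± 1.31 after 2500 mg/kg (adjusted p = 0.0279) with rats from -0.28 to 2.50. Without rat 3631 it was 0.23 (adjusted p = 0.539) and without rat 3630 0.68 (adjusted p = 0.109).

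Of 15 haem and iron genes, 5 fell at the middle dose and 6 at the high dose, and 1 rose at the high dose. Abcb6, a mitochondrial porphyrin transporter, fell to -0.79 ± 0.09 and -0.76 ± 0.20 (SD, n = 4; adjusted p = 1.65e-07 and 2.13e-07). Alad, the enzyme that follows Alas2 in haem synthesis, fell to -0.52 ± 0.08 and -0.67 ± 0.55, the latter -0.40 without rat 3631 and still called, and the middle dose call was lost with only the rats of 24 h (adjusted p = 0.108). Alad fell after 2500 mg/kg, where Alas2 had 2 rats near or below vehicle and 2 above. Glrx5, needed for iron-sulphur clusters, fell to -0.80 ± 0.74 after 2500 mg/kg, a mean of -0.45 without rat 3631 and still called. Its -0.49 ± 0.16 after 1500 mg/kg (adjusted p = 0.0426) was lost in any fit that left out 1 of the 4 rats of that group, at -0.44 to -0.56. Ireb2, an iron regulatory protein, rose to 0.23 ± 0.18 after 2500 mg/kg (adjusted p = 0.00245), and was 0.15 without rat 3631 (adjusted p = 0.0518). Eif2ak1, the haem-regulated kinase of translation, fell to -0.87 ± 0.13 and -0.80 ± 0.08, but its 2 probes disagreed, at -1.73 and -0.01 after 1500 mg/kg.

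Of 20 membrane and blood group genes, 7 fell at the middle dose and 8 at the high dose, and 0 rose at either (0 also at an unadjusted p under 0.05). Aqp1, the water channel, fell to -0.50 ± 0.05 and -0.52 ± 0.13 (SD, n = 4; adjusted p = 7.73e-07 and 3.2e-07). Cd59b, a complement inhibitor on the surface, fell to -0.69 ± 0.34 and -0.80 ± 0.30. Add2, a skeleton protein that caps actin, fell to -0.62 ± 0.12 and -0.82 ± 0.18, with 1 of its 2 probes at -1.19 and -1.60 and the other at -0.04 and -0.05. Tmcc2, a membrane protein of maturing red cells, fell to -0.59 ± 0.24 and -0.69 ± 0.39, both probes below vehicle at -0.96 and -0.22 after 1500 mg/kg.

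Of 13 transcription factor and receptor genes, 4 fell at each dose and 0 rose, with 1 higher at an unadjusted p under 0.05. Gata1, the main red cell transcription factor, fell to -0.25 ± 0.10 and -0.36 ± 0.22 (SD, n = 4; adjusted p = 0.00225 and 1.79e-05), and the middle dose was lost with only the rats of 24 h (adjusted p = 0.121). Ldb1, the bridging partner of Tal1 and Gata1, fell to -0.39 ± 0.13 and -0.48 ± 0.04. Hemgn fell to -0.52 ± 0.16 and -0.46 ± 0.39, the latter -0.30 without rat 3631 and still called. Foxo3, a factor for maturation and oxidant defence, fell to -0.63 ± 0.38 and -0.59 ± 0.13, with 1 probe at -1.19 and -1.17 and the other at -0.06 and -0.01. Hbg1, the only globin gene measured, had 0.04 ± 0.07 and 0.08 ± 0.08 (adjusted p = 0.518 and 0.0543), and without rat 3631 0.12 after 2500 mg/kg (adjusted p = 0.00577). None of the listed Hba and Hbb genes was measured, so these values do not cover them.

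**Figure D4:**
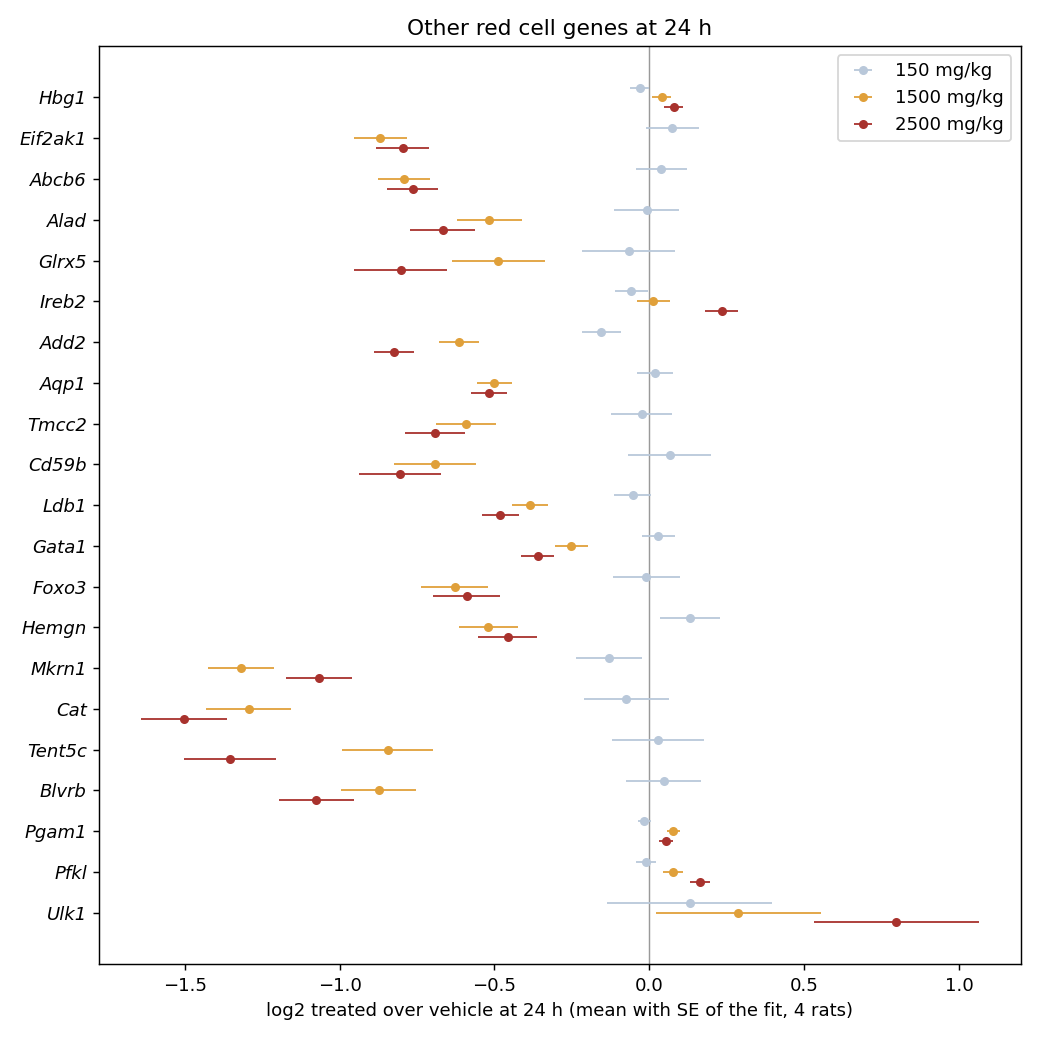
Log2 ratio of treated over vehicle at 24 h (horizontal axis, mean with the SE of the fit over 4 rats) for 21 named red cell genes outside the 9, with pale blue for 150, orange for 1500 and red for 2500 mg/kg. The low dose points lie between -0.16 and 0.13, and Cat, Mkrn1, Tent5c and Blvrb reach below -0.8 at both higher doses.

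At 24 h after 150 mg/kg 0 of the 65 genes were called in either direction, with 2 lower and 1 higher at an unadjusted p under 0.05. Between doses the vehicle RNA cancels, and the low dose then serves as the reference. At 24 h 16 of the 65 were lower after 1500 than after 150 mg/kg and 0 higher (1 at an unadjusted p under 0.05), where 1.51% of all genes were lower and 0.632% higher. Mkrn1 differed by -1.19 ± 0.15 (SE; adjusted p = 2.9e-05) and Cat by -1.22 ± 0.20 (SE; adjusted p = 0.000307). Leaving out rat 3617 gave 9 genes, rat 3618 gave 8 and rat 3623 gave 8.

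After 2500 against 150 mg/kg 18 of the 65 were lower and 2 higher, where 5.09% of all genes were lower and 2.56% higher. Tent5c differed by -1.38 ± 0.21 (SE; adjusted p = 0.000109) and Blvrb by -1.12 ± 0.17 (SE; adjusted p = 0.000114), and Ireb2 and Pfkl were the higher genes. The higher count was 0 without rat 3617 and 1 without rat 3619, 3620 or 3631. Between 2500 and 1500 mg/kg 0 of the 65 and 0% of all genes were called, with 4 of the 65 lower and 2 higher at an unadjusted p under 0.05.

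Changes of the dose difference over time were tested next. For 2500 against 150 mg/kg, 13 of the 65 had a lower difference at 24 h than at 6 h and 0 a higher one (2 at an unadjusted p under 0.05), where 1.58% of all genes were lower. Cat changed by -1.67 and Tent5c by -1.47. For 1500 against 150 mg/kg 4 of the 65 did and 0 were higher (1 at an unadjusted p under 0.05), where 0.228% of all genes were lower. That count fell to 1 or 2 when any of 16 single rats was left out, among them 3587, 3588 and 3625. All genes with a higher difference were 0.3% for the high and 0.0207% for the middle dose. From 12 to 24 h 0 of the 65 passed for 1500 against 150 mg/kg, with 12 lower and 1 higher at an unadjusted p under 0.05, where 0.0104% of all genes were lower and 0% higher. For 2500 against 150 mg/kg 1 passed, Tent5c, which was lower, where 0.269% were lower and 0.0414% higher. That count was 0 to 4 without 1 rat, with the 4 reached without rat 4138 and 0 without, among others, rats 3617, 3628 and 3631; the 0 for 1500 mg/kg became 1 without rat 3624.

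Against vehicle, fewer of the other red cell genes were called at the earlier times after the higher doses than at 24 h. Those counts were not compared by a test, and each time has its own vehicle RNA. At 6 h 1, 6 and 3 of the 65 fell and 0, 2 and 1 rose from the low to the high dose, with 4 higher at an unadjusted p under 0.05 at the low dose. Over all genes 0.932%, 9.24% and 5.18% were lower and 1.07%, 3.48% and 2.54% higher, so the shares of the 65 lay near the background. Mkrn1 fell after 150 mg/kg to -0.45 (adjusted p = 0.0223) and after 1500 mg/kg to -0.44 (adjusted p = 0.00539). The single low dose call was lost when any of its 4 rats was left out, and the 6 were 3, 2 and 2 without rat 3591, 3592 or 3593. The 3 at the high dose were 0 to 1 without any 1 of its 4 rats. At 12 h 0, 7 and 2 fell and 0 rose, with 2, 3 and 1 higher and 11, 17 and 22 lower at an unadjusted p under 0.05. Over all genes 0.922%, 3.36% and 1.29% were lower and 0.963%, 1.48% and 0.0932% higher. The 7 were 0 without rat 4132, 3 without rat 4133, 4 without rat 4134 and 13 without rat 3631. The 2 after 2500 mg/kg were 13 without rat 4137 and 0 without any other rat of that group, and 4 and 5 without rats 3624 and 3631. Between doses at 6 and at 12 h 0 of the 65 passed in any of the 6 contrasts, with at most 3 lower and 5 higher at an unadjusted p under 0.05. Of all genes, 0.0207% were lower and 0.0207% higher for 1500 against 150 mg/kg at 6 h, 0.124% and 0.0207% for 2500 against 150 mg/kg, and 0% for 2500 against 1500 mg/kg and for every contrast at 12 h.

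Markers of other blood cells are given beside the same background at 24 h, 5.74% lower and 2.34% higher of all genes after 1500 mg/kg and 15.6% and 10.9% after 2500 mg/kg. Of 12 neutrophil genes 7 rose after 1500 mg/kg, with a median of 0.37 and rat medians from 0.23 to 0.65, and 6 rose and 1 fell after 2500 mg/kg, with rat medians from 0.16 to 0.43. Of 15 T cell genes 8 and 10 fell, with medians of -0.41 and -0.43, and of 3 B cell genes 3 and 2 fell. Of 9 platelet genes 0 passed after 1500 mg/kg (2 lower at an unadjusted p under 0.05) and 5 fell after 2500 mg/kg, with a median of -0.53. Of 8 monocyte genes 0 passed after 1500 mg/kg, with 1 lower at an unadjusted p under 0.05, and 1 fell and 1 rose after 2500 mg/kg, near the background. Neutrophil, T cell and B cell lists had calls at both doses, and their part in the red cell result was not tested.

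Over the 9 group means, the 5 genes nearest to the mean profile of the 7 lower genes were Ctbp1, Bcas3, Cd82, Gpx4 and Add2, at root mean square differences of 0.07 to 0.10 on the log2 scale. Ctbp1, a transcriptional corepressor, had -0.67 ± 0.12 and -0.96 ± 0.26 at 24 h after the higher doses, and Gpx4, a lipid peroxide reductase, -0.68 ± 0.39 and -0.88 ± 0.52 (SD, n = 4). The genes nearest to the mean profile of Alas2 and Ank1 were Il12b, Asmt, Scrn2, Wfikkn2 and Rapsn, at 0.05 to 0.09. None of these is a listed red cell gene: Il12b encodes an interleukin subunit, Asmt an enzyme of melatonin synthesis and Rapsn a protein of the muscle synapse. Asmt ranged from -0.23 to 2.01 over the 4 rats given 2500 mg/kg at 24 h, and averaged 0.65 ± 1.04, or 0.20 without rat 3631. Il12b averaged 0.58 ± 1.01 there, or 0.15 without that rat. These genes were thus highest in the same rat as the pair, and their likeness is given as a description over 9 group means.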

How the data were processed

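Blood RNA of 34 treated rats was hybridised against vehicle RNA on 68 two-colour arrays. The authors deposited 1 log10 ratio per probe and array, for 22075 probes; their background correction and normalization are, per the labels, not given in the sources used here. The values were limited to between -2.0 and 2.0, and array medians lay between -0.00352 and 0. The direction of the ratio, its centring and its scale beyond log10 are not stated, and Cy5 was assumed as numerator. Dyes came from the labels.

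Ratios were converted to log2, turned so that treated stood over vehicle, and a rat's 2 arrays were averaged. Of the probes, 12750 carried 1 gene name, 5 several and 9320 none, and 12720 names were updated through Entrez identifiers. Probes of a gene were averaged (2266 genes had more than 1), which gave 9653 gene values. Exact zeros, 2.76% of array values, were kept. Group means were fitted with limma 3.58.1 in R 4.3.3 over all 34 rats, with 22 contrasts: 9 groups against vehicle, 9 dose differences within a time and 4 changes of a dose difference over time. P-values were adjusted by the Benjamini-Hochberg method over all genes, at 0.05. The fit was tested on simulated data.

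The 9 genes and the gene lists were chosen with earlier results of these data known. The named genes were all 9, up to 4 genes per red cell list with the smallest adjusted p at 24 h after 1500 or 2500 mg/kg and those passing against the direction of their list, every globin gene, and the 5 genes nearest to each mean profile. Replicates are separate rats, and the vehicle RNA of a time is 1 sample.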

Additional observations from a re-analysis of the deposited data

Results flagged for a closer look

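Within groups of 4 rats, single rats lay far from the other 3 for 5 of 63 gene and group pairs tested; chance flags about 1 in 20. Rat 3628 had -1.44 for Bnip3l at 24 h after 2500 mg/kg, and rat 3618 had -0.59 for Tal1 at 24 h after 150 mg/kg. Rat 3596 had 0.33 for Alas2 at 6 h after 2500 mg/kg. Rat 3624 had 1.37 for Alas2 and 0.77 for Ank1 at 24 h after 1500 mg/kg.

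At the same dose, every rat lay on one side of vehicle at 6 h and on the other later for 2 genes, differences that were not tested. Bnip3l after 150 mg/kg was higher at 12 h than at 6 h by 0.28. Tal1 after 2500 mg/kg differed by -0.72 between 12 and 6 h and by -1.03 between 24 and 6 h.

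For 13 named red cell genes outside the 9, the difference between 2500 and 150 mg/kg changed from 6 to 24 h by limma's test. The changes were -1.67 for Cat, -1.47 for Tent5c, -1.31 for Mkrn1, -1.31 for Blvrb, -1.07 for Abcb6, -0.996 for Cd59b, -0.89 for Eif2ak1 and -0.87 for Foxo3. They were -0.85 for Tmcc2, -0.82 for Add2, -0.70 for Aqp1, -0.51 for Ldb1 and -0.48 for Gata1.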

How the results depend on the processing

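Under the settings other than leaving out 1 rat, every mean of the 9 genes stayed within 1 SD of its value. So did the mean of the 7 lower genes minus that of Alas2 and Ank1. Leaving out 1 rat cannot move a mean by 1 SD in groups of this size, so nothing is read from it there. The same holds for several other settings. Each of the 9 genes had 1 probe, so the handling of several probes could not change its mean. None had array values of exactly 0 or at the limits, so leaving such values out changed nothing. The fit of all arrays with a dye term kept the means, because each rat had both dyes. Only settings that could move a mean, such as arrays scaled to 1 spread, bear on this. No named gene that passed the test turned its direction. The SDs of Alas2 and Ank1 at 24 h after the higher doses are wide, so 1 SD is a loose limit for them. Alas2 after 2500 mg/kg at 24 h ran from 0.23 to 0.89 over all settings. Its call there was lost in 23 of 43 settings and that of Ank1 in 4. Of the settings for the named genes, 37 lost and 7 gained a call, and 20 and 10 did when 1 rat was left out.

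The counts below are of the 65 other red cell genes, and causes were not tested. With arrays scaled to 1 spread, against vehicle, 3 and 14 genes were lower at 6 h at the low and middle dose and 4 and 7 higher at the middle and high dose; at 12 h 4 and 2 were lower and higher at the low dose and 0 lower at the high dose, and 0 were lower for both the change of 1500 mg/kg from 6 h and that of 2500 mg/kg from 12 h. The fit of all 68 arrays had a dye term and rat as a random block. Its fitted correlation between the arrays of a rat was -0.0156, so they counted nearly as separate replicates. Larger counts in this fit are therefore not read as firmer. In the fit of all 68 arrays, 2 and 12 were lower at 6 h after 150 and 1500 mg/kg and 4 higher after 2500 mg/kg. At 12 h it called 4, 11 and 15 lower and 1 and 1 higher at the higher doses. At 24 h it called 6 higher after 2500 mg/kg, and 1 and 5 higher than after 150 mg/kg for the middle and high dose. At 12 h 1 was lower after 1500 than after 150 mg/kg, and the changes from 6 h gave 8 lower for 1500 mg/kg and 1 higher for 2500 mg/kg, and those from 12 h 5 and 9 lower.

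Without the array that stood apart, a setting chosen after seeing the data, 6 and 16 were lower at 6 h after 150 and 1500 mg/kg and 4 higher after 2500 mg/kg. It too was fitted on arrays with rat as a random block, so its larger counts are not read as firmer. At 12 h 12, 17 and 22 were lower and 3, 3 and 1 higher. At 24 h 3 and 6 were higher at the middle and high dose, and 1 and 5 higher than after 150 mg/kg. At 12 h 1 was lower after 1500 than after 150 mg/kg; the changes from 6 h gave 12 and 20 lower and 2 higher, and those from 12 h 10 and 10 lower. With only the rats of a time, 4 and 1 were lower and higher at 6 h after 150 mg/kg, 14 lower after 1500 mg/kg, and 5 and 4 after 2500 mg/kg. At 12 h 0 were lower at the middle and high dose, at 24 h 0 and 0 higher, and against 150 mg/kg 5 and 9 lower and 0 higher. With errors widened for the vehicle pool 0 were called at 6 h in every case, 0 at 12 h at the higher doses, and 0 higher at 24 h after 1500 mg/kg. Where every probe had to pass, 3 and 1 were lower and higher at 6 h at the middle dose, 1 and 0 at the high dose, and 4 and 0 lower at 12 h at the middle and high dose. At 24 h 13 were lower after 1500 mg/kg and 9 lower than after 150 mg/kg; the changes gave 2 and 8 lower from 6 h and 0 from 12 h for 2500 mg/kg.

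Leaving out 1 rat at a time, the genes lower at 24 h were 20 to 22 at the middle and 26 to 30 at the high dose, and those higher 0 to 1 and 2 to 5. Against 150 mg/kg 8 to 18 and 15 to 21 were lower and 0 to 1 and 0 to 2 higher. At 12 h 0 to 2, 0 to 13 and 0 to 13 were lower and 0 to 2, 0 to 3 and 0 to 1 higher, and at 6 h 0 to 2, 2 to 9 and 0 to 4 lower and 0, 0 to 3 and 0 to 3 higher. The changes from 6 h gave 1 to 6 and 10 to 19 lower and 0 to 1 higher, and those from 12 h 0 to 1 and 0 to 4 lower. The mean of the 7 minus that of the pair at 24 h ran from -1.02 to -0.74 after 1500 mg/kg and from -1.78 to -1.07 after 2500 mg/kg. No paired analysis was possible because each rat belongs to 1 group.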
